A study of Mus musculus with 26 samples.

Results

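Polyadenylated RNA of NIH3T3, a fibroblast line derived from mouse embryos, was compared between 7 h of oxidative stress by H2O2 and 7 h of osmotic stress by KCl. The comparison used 4 of the 26 libraries of the series, namely 2 replicates with H2O2 and 2 with KCl, taken by their labels and set directly against each other without a control in the test. The same cells without stress (2 RNA libraries, a control shared by both stresses), cells after 2 h of H2O2 or KCl (2 RNA libraries each) and 10 ribosome footprint libraries of the same 5 conditions were used only to place the difference. The groups share the cell line and differ in agent and time, and the labels give no concentration for either agent. The series title concerns transcription that runs past the end of a gene into its neighbour under stress, and the direct comparison asks which genes set late oxidative from late osmotic stress apart.

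The 4 libraries held between 24441877 and 31669870 expected counts. Log2 levels of replicates correlated across genes at 0.998 for H2O2 and 0.9976 for KCl, and no replicate pair agreed within sampling noise. Levels are given as CPM (counts scaled to a common library total) for each library, and differences as log2 fold changes of H2O2 over KCl with their standard error (SE), so a positive value means more RNA with H2O2. Fibroblast markers were abundant, with Col1a1 (a type I collagen chain) at 1986 and 2072 CPM with H2O2 and 4449 and 4635 CPM with KCl. Nothing in the labels says whether the replicates were separate cultures, so p-values measure only the spread between these libraries, which may be technical.

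H2O2 oxidises proteins, lipids and DNA. Cells answer through NRF2, which switches on genes of glutathione and thioredoxin metabolism, through p53, which is stabilised when DNA is damaged, and through ATF4, the transcription factor of the integrated stress response. Raised KCl outside the cell draws water out, and cells answer through NFAT5 (TonEBP), which switches on transporters and enzymes that fill the cell with organic osmolytes such as sorbitol, betaine, taurine and myo-inositol. Both stresses also act on MAP kinases, chaperones and the cell cycle.

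The H2O2 and KCl cells differed in most expressed genes at 7 h. Of 12632 genes tested, 10422 (82.5%) passed an adjusted p of 0.05 by edgeR's quasi-likelihood test, 5369 of them higher with H2O2 (42.5%) and 5053 lower (40.0%). A difference of at least 2-fold was reached by 2503 genes higher with H2O2 (19.8%) and by 1880 genes lower with H2O2 (14.9%). The distribution was lopsided. The median log2 fold change over all tested genes was 0.03, the 5th percentile lay at -1.87 and the 95th at 3.13. The CPM values of the groups did not overlap for 11497 of the tested genes (91.0%). With so large a background, a passed test alone separates a gene little from the rest, and sizes of difference are therefore given with each gene list. For counts of list members in the direct comparison, the background is 42.5% higher and 40.0% lower. For differences of at least 2-fold it is 19.8% and 14.9%.

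**Figure D1:**
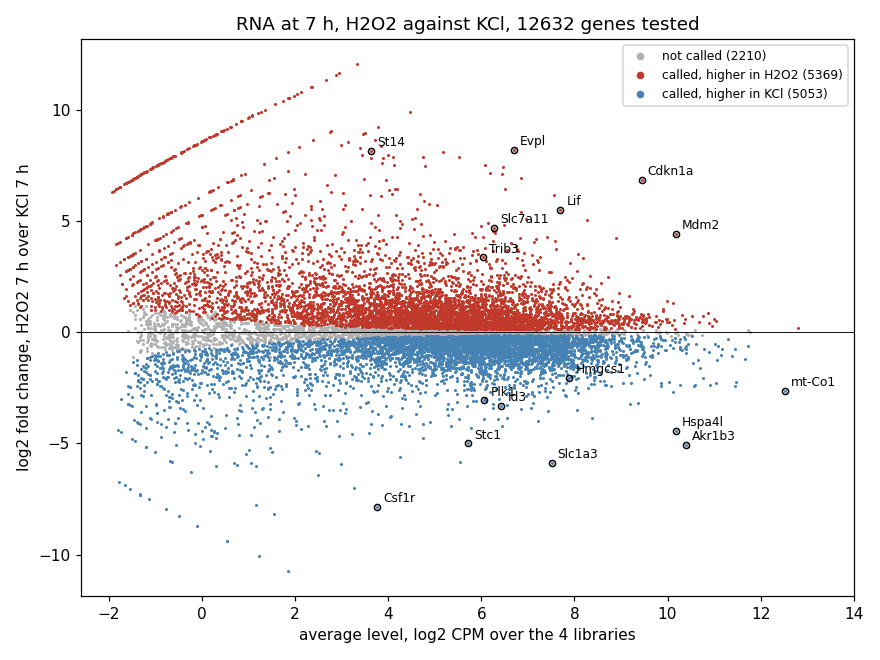
Each point is 1 of the 12632 tested genes, with its average level over the 4 libraries (log2 CPM) on the x axis and its log2 fold change of H2O2 over KCl at 7 h on the y axis. Red points passed the test as higher with H2O2, blue points as higher with KCl and grey points did not pass, while circles mark genes named in the text. Straight streaks at low levels are genes with 0 or very few counts in 1 group, whose fitted fold change depends on the prior count.

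Both stresses had been compared with the same 2 control libraries, so the following shares are a description of where each difference lay. Of the 2503 genes at least 2-fold higher with H2O2, 41.9% were above the control with H2O2 and below it with KCl, and 34.0% were above it with H2O2 while KCl did not pass. Only 10.3% were above the control with both stresses. Of the 1880 genes at least 2-fold higher with KCl, 50.3% were above the control with KCl and below it with H2O2, and 25.4% were above it with KCl alone. Genes displaced from the control in opposite directions were the most frequent class on both sides. Picking genes by a large direct difference favours this class in advance, so its rank is no separate result. Its share over all genes was not counted. Over all 13256 genes tested against the control, 39.4% were higher and 31.1% lower with H2O2, and 37.2% were higher and 31.6% lower with KCl.

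Among genes with an average level of at least 3 log2 CPM and no overlap of the groups, the 14 with the largest differences towards H2O2 were near 0 in the KCl libraries and low in the control. Robo3, a receptor for axon guidance, stood at 19.0 and 20.5 CPM with H2O2 and had no count in either KCl library. Against a floor of 3 counts over the KCl group, its 1146 counts with H2O2 were at least 332.1-fold higher. Several others are genes of stratified epithelium. Evpl (envoplakin, a protein of the cornified envelope, chr11:116220559-116238165 in GRCm38.p6) had 205 and 216 CPM with H2O2, 0.572 and 0.839 CPM with KCl, and 1.45 and 1.47 CPM in the control, a log2 fold change of 8.22 (SE 0.11, adjusted p 2.44e-14 by edgeR). Both H2O2 libraries thus stood far above all 4 others. Zfp750, a transcription factor of epidermal differentiation that lies inside the span of Tbcd, had 2543 counts with H2O2 against 2 with KCl, a ratio of 1110 with a 95% counting interval from 306 to 9133. Krt13, a keratin of stratified epithelia, had 1288 against 2, a ratio of 560 (155 to 4628). Counting intervals cover counting error only.

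Others in this group act at the cell surface. St14 (matriptase, a membrane serine protease) had 23.7 and 24.7 CPM with H2O2 and 0.0357 and 0.132 CPM with KCl, and the nucleoside transporter gene Slc29a4 had 32.1 and 30.0 against 0.107 and 0.132 CPM. Gna15, a G protein alpha subunit, had 1192 counts against 3. Sp6 (a transcription factor, 1253 against 2 counts) and Nipal4 (linked to ichthyosis, log2 fold change 8.38, SE 0.23) showed the same contrast. Sec14l5 reached 73.4 and 71.5 CPM with H2O2 and 0.322 and 0.177 CPM with KCl. Ltb4r2 and Ltb4r1, neighbouring genes for leukotriene B4 receptors on chromosome 14, differed by 9.24 and 7.96 on the log2 scale, and the authors called read-in from Ltb4r2 into Ltb4r1 in both H2O2 libraries and in no KCl library. Ltb4r2 itself had 1573 counts with H2O2 and 2 with KCl, a ratio of 684 (189 to 5651). The authors' read-in ratio for the pair of Ltb4r2 and Ltb4r1 was 1.17 and 1.69 in the H2O2 libraries. With KCl, where Ltb4r1 had almost no counts, it was 2.83 and 0. How many of the reads in Ltb4r1 come from transcripts of Ltb4r2 was not tested beyond this ratio. Ptprv, with 989 counts against 2, and Ccdc64, with 1499 against 3, complete the 14 largest. Ccdc64 is an older symbol of Bicdl1, which has a row of its own in the table, so its value may cover only some of the gene's reads.

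In ribosome footprints at 7 h, Evpl had 147 and 183 CPM with H2O2 and 0.376 and 0 CPM with KCl, and Robo3 13.1 and 7.78 CPM with H2O2 and none with KCl. Of the 14 genes 12 passed the footprint filter on low counts, with KCl footprints of at most 1.5 CPM in either library. They entered through the H2O2 libraries, so their direction there is no separate support. The other 2 had almost no footprints with H2O2 despite their RNA, with 0 and 0.576 CPM for Ptprv and 0.569 and 0.576 CPM for Ltb4r1.

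By the same rule, the 14 genes with the largest differences towards KCl included several that were expressed in the control. Slc1a3, a glutamate and aspartate transporter (chr15:8634124-8710807), had 5.97 and 6.84 CPM with H2O2, 351 and 379 CPM with KCl, and 39.3 and 34.3 CPM in the control. It was thus below the control with H2O2 and above it with KCl, and the direct log2 fold change was -5.86 (SE 0.084, adjusted p 2.67e-14 by edgeR). Akr1b3, aldose reductase, which makes sorbitol from glucose (chr6:34303930-34317489), had 80.9 CPM in both H2O2 libraries, 2639 and 2650 CPM with KCl, and 121 CPM in both control libraries. Its log2 fold change was -5.05 (SE 0.070). Csf1r, the receptor for colony stimulating factor 1 and best known from macrophages, had 0.0607 and 0.198 CPM with H2O2, 29.2 and 27.2 CPM with KCl and at most 0.105 CPM in the control, a log2 fold change of -7.84 (SE 0.22).

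The other 11 span secreted, signalling and structural proteins. Tnfsf15, a TNF family ligand, had 0.212 and 0.0791 CPM with H2O2 and 19.3 and 21.1 CPM with KCl. Stc1 (stanniocalcin, a secreted glycoprotein hormone) had 3.12 and 3.60 against 100 and 109 CPM, and Prss35, a serine protease homologue, 1.61 and 1.74 against 96.3 and 93.3 CPM. In the control Stc1 had 1.51 and 2.15 CPM, less than with either stress, and Prss35 11.1 and 10.2 CPM, between the stresses. Gper1 (an oestrogen receptor of the G protein coupled type) differed by -5.61, Rarb (a retinoic acid receptor) by -4.75 and Aspn (asporin, a matrix proteoglycan) by -4.57. Cables1 (-4.53), Fgd3 (-4.31), Tnxb (tenascin X, -4.22) and Arrb1 (beta-arrestin, -4.21) were of like size. Hspa4l, an Hsp110 chaperone, had 104 and 109 CPM with H2O2 and 2210 and 2276 CPM with KCl. In footprints the 14 genes differed by -7.16 for Csf1r to -2.52 for Aspn. Several had almost no footprints with H2O2, such as Csf1r at 0.285 and 0.288 CPM and Rarb at 0.569 and 0.576 CPM. Such genes passed the filter through the KCl libraries, so their direction there is no separate support. The footprint call of Cables1 was lost with DESeq2 (adjusted p 0.0618), without a filter (0.0505), without H2O2 replicate 1 (0.104) and without KCl replicate 1 (0.154), and that of Gper1 without KCl replicate 1 (0.0697).

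Targets of p53 separated the stresses more than any other of the 25 lists of stress, growth and housekeeping genes examined. Of 25 tested members 23 were higher with H2O2 (background 42.5%) and 22 at least 2-fold (19.8%), with a median log2 fold change of 3.15 against 0.03 for all genes. Cdkn1a, the p21 inhibitor of cyclin-dependent kinases (chr17:29090979-29100722), had 1397 and 1429 CPM with H2O2, 11.3 and 13.0 CPM with KCl and 31.4 and 33.5 CPM in the control. The H2O2 libraries stood above the control and the KCl libraries below it, and the direct log2 fold change was 6.85 (SE 0.085, adjusted p 2.15e-14 by edgeR). Mdm2, the ubiquitin ligase that degrades p53, had 2119 and 2413 CPM with H2O2 and 105 and 103 CPM with KCl, while the control held 77.7 and 76.2 CPM. Here KCl was slightly above the control, and the log2 fold change was 4.43 (SE 0.081).

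Other members of the list with clear roles followed. The secreted factor Gdf15 differed by 6.46 (SE 0.29), but it reached only 7.16 and 7.71 CPM with H2O2. The size of its difference thus rests on few counts with KCl. Zfp365, Psrc1, the death receptor gene Fas and Ccng1 (cyclin G) differed by 5.08, 4.93, 4.30 and 4.25. The BH3-only genes Bbc3 (Puma) and Pmaip1 (Noxa) differed by 2.91 and 2.71, and Pmaip1 was above the control with both stresses, by 4.60 with H2O2 and 1.87 with KCl. The exceptions were Sesn1, a sestrin, which was higher with KCl at 79.6 and 78.1 CPM against 37.6 and 37.1 CPM (log2 fold change -1.09, SE 0.059), and Tigar, which did not pass at 0.04 (SE 0.075). Against the control, all 25 members passed as higher with H2O2 (background 39.4%), with a median of 3.44, whereas 10 were higher and 10 lower with KCl, with a median of -0.05. Sesn2 belongs to this list and to that of ATF4 and is counted in both.

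**Figure D2:**
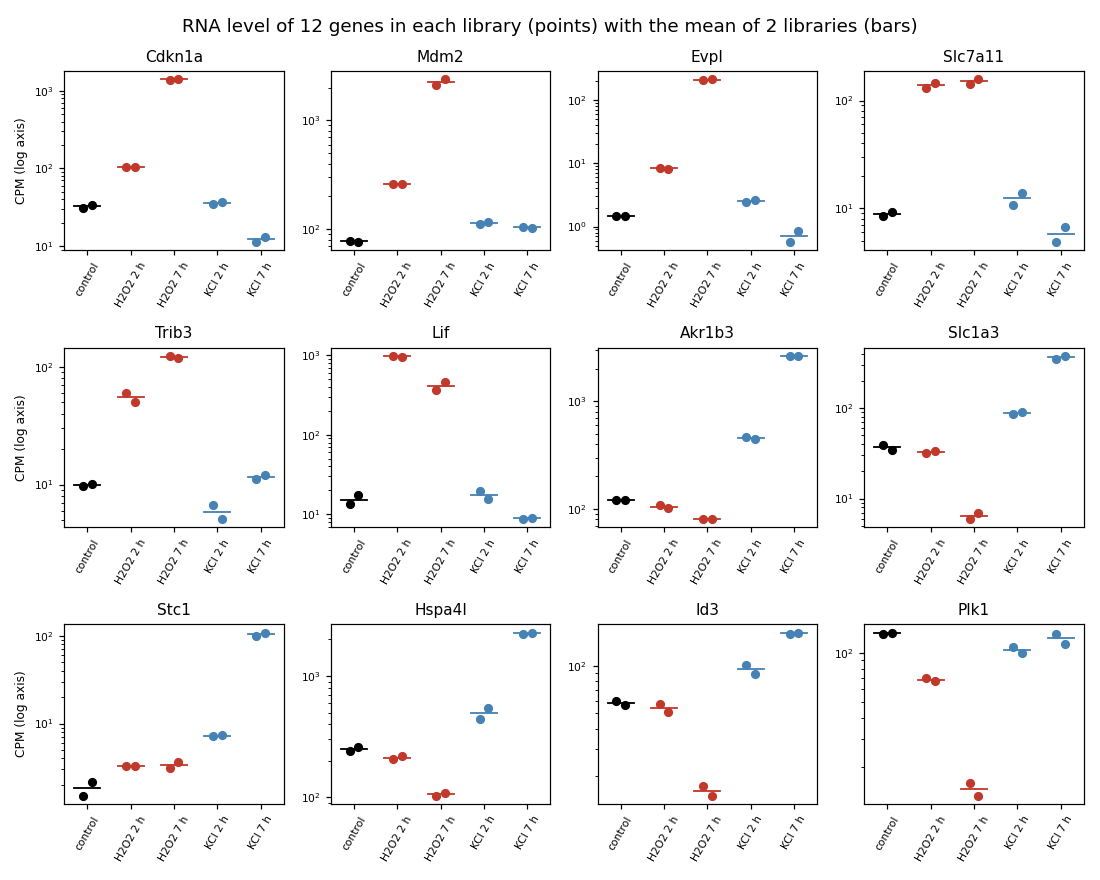
RNA levels of 12 genes in CPM (y axis, log scale, own range in each panel) in the control and after 2 h and 7 h of H2O2 (red) or KCl (blue), with points for the 2 libraries of a group and bars for their mean. Cdkn1a, Mdm2 and Evpl were highest at 7 h of H2O2, Akr1b3, Slc1a3, Stc1 and Hspa4l at 7 h of KCl, and Lif was higher at 2 h than at 7 h of H2O2.

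NRF2 targets were more divided. Of 25 tested, 18 were higher with H2O2 (background 42.5%) and 4 lower (40.0%), with a median of 0.72. At least 2-fold were 12 of the former and none of the latter. Hmox1, haem oxygenase, had 678 and 786 CPM with H2O2, 123 and 134 CPM with KCl and 98.4 and 88.9 CPM in the control, a log2 fold change of 2.49 (SE 0.078). Nqo1, a quinone reductase, had 220 and 190 against 69.3 and 78.0 CPM, and Slc7a11, the cystine importer that feeds glutathione synthesis, 144 and 159 against 4.89 and 6.71 CPM. Slc7a11 had the largest difference of the list at 4.70 (SE 0.10). Its level with KCl lay below the control by 0.63 on the log2 scale.

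Other members of the list differed little or went the other way. Gclc, the catalytic subunit of the rate-limiting enzyme of glutathione synthesis, had 95.4 and 101 CPM with H2O2 and 96.4 and 101 CPM with KCl, and the groups overlapped (log2 fold change -0.02, SE 0.056). Against the control Gclc was higher by 1.33 with each stress. G6pdx and Ugdh also did not pass, at -0.09 and -0.08. Gstm1, a glutathione transferase, and Me1, malic enzyme, were lower with H2O2 than with KCl by 0.74 and 0.68 on the log2 scale. Over the list the median against the control was 0.88 with H2O2 and 0.21 with KCl.

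Upstream sequences of 2 members whose RNA rose are shown because they hold letters bound by NRF2 or related factors. Both are the 150 bases before the transcription start in RefSeq (GRCm38.p6), and capitals mark TGANTCA, the AP-1 letters, in Srxn1 (sulfiredoxin, chr2:152105374-152105523, plus strand) and TGACNNNGC, the core of the antioxidant response element, on the reverse strand in Txnrd1 (thioredoxin reductase, chr10:82859056-82859205, plus strand).
Srxn1: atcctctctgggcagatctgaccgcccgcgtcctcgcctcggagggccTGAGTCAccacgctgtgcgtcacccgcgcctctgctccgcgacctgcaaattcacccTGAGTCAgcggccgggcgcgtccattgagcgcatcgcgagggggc
Txnrd1: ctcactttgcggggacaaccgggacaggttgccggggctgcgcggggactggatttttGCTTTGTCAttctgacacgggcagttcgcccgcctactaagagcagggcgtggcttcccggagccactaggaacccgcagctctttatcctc
Srxn1 stood at 246 and 244 CPM with H2O2 and 102 and 107 CPM with KCl, and Txnrd1 at 1443 and 1569 against 566 and 564 CPM. Both genes were above the control with both stresses and further above it with H2O2. RefSeq lists some genes with several starts and others not at all. The letters TGACNNNGC occurred on either strand in 8 of 27 RefSeq promoters (250 bases before to 50 after a start) of the NRF2 list, which is 29.6%, in 14.3% of those of all tested genes, in 15.0% of those of genes at least 2-fold higher with H2O2 and in 13.2% of those of genes at least 2-fold higher with KCl.

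Of the 21 tested targets of ATF4 and CHOP, 20 were higher with H2O2 and 14 at least 2-fold, with a median of 1.77. Trib3, a pseudokinase, had 124 and 118 CPM with H2O2, 11.3 and 12 CPM with KCl and 9.74 and 10.1 CPM in the control, a log2 fold change of 3.37 (SE 0.070). The KCl libraries lay close to the control. Sesn2 and Vldlr, the very low density lipoprotein receptor, differed by 3.72 and 3.70, and Ddit3 (CHOP) by 2.36 with 126 and 118 against 22.9 and 23.8 CPM. Atf4 itself differed by 0.92. The only member higher with KCl was Nupr1, a small chromatin protein, with 90.0 and 83.0 CPM with H2O2 and 293 and 321 CPM with KCl (log2 fold change -1.84, SE 0.065).

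Upstream sequences are shown for Slc7a11 (chr3:50443614-50443763, minus strand) and for Asns, asparagine synthetase (chr6:7693210-7693359, minus strand), again 150 bases before the start, with the letters TGATGNAA of ATF4 sites in capitals on either strand.
Slc7a11: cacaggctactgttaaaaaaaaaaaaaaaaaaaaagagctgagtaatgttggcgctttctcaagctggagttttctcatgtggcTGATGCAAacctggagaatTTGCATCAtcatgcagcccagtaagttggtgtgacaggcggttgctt
Asns: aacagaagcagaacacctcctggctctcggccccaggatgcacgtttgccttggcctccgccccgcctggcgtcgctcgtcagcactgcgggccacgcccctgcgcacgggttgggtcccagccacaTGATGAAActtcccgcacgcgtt
Asns had 349 and 338 CPM with H2O2 and 78.7 and 71.2 CPM with KCl. Among the promoters of the ATF4 and CHOP list 7 of 24 held these letters (29.2%), against 2.24% of those of all tested genes. The share was 3.0% for genes at least 2-fold higher with H2O2 and 1.99% for genes at least 2-fold higher with KCl. Among the other lists searched it ran from 0.0% (osmolyte genes and heat shock chaperones) to 7.14% (cholesterol genes).

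Chaperones of the endoplasmic reticulum did not follow ATF4. Of 16 tested, 2 were higher with H2O2 and 12 lower, though only 1 by 2-fold, with a median of -0.30. Hspa5 (BiP) had 1148 and 1302 CPM with H2O2 and 1470 and 1499 CPM with KCl, a log2 fold change of -0.30 (SE 0.069). The largest differences were those of Dnajc3 at -1.03 and Herpud1 at 0.42.

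Genes of the NFAT5 and osmolyte list formed the opposite pole. All 10 tested members were lower with H2O2 (background 40.0%), 9 of them by at least 2-fold (14.9%), with a median of -2.34. After aldose reductase the largest differences were in Hspa4l and in Slc6a12, the betaine transporter, which had 0.455 and 0.554 CPM with H2O2 and 8.32 and 7.64 CPM with KCl and at most 0.0207 CPM in the control. Slc6a12 was therefore above the control with both stresses, and its direct log2 fold change was -4.01 (SE 0.20). Slc38a2, a neutral amino acid transporter, had 388 and 436 against 2033 and 2166 CPM, and Slc6a6, the taurine transporter, 194 and 219 against 991 and 1008 CPM. Nfat5 itself had 113 CPM in both H2O2 libraries and 539 and 570 CPM with KCl, and the log2 fold change was -2.31 (SE 0.059).

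The myo-inositol transporter gene Slc5a3 had 86.4 and 103 CPM with H2O2 and 279 and 301 CPM with KCl, with 56.2 and 60.2 CPM in the control. It too was above the control with both stresses. Aqp1, the water channel aquaporin 1, was below the control with H2O2 (115 and 121 CPM against 315 and 307) and above it with KCl (1067 and 1075 CPM). The member with the least difference was Sgk1, a kinase of ion transport, at -0.77 (SE 0.067). The list's median against the control was -0.48 with H2O2 and 1.97 with KCl.

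The 150 bases before a start of Slc6a12 (chr6:121342424-121342573, plus strand) are shown because they hold a match to the TonE consensus of NFAT5, in capitals.
Slc6a12: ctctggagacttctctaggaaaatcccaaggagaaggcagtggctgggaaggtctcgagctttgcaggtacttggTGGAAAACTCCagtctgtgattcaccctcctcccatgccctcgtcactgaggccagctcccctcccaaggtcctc
A TonE match on either strand was present in 1 of 17 promoters of the osmolyte list (5.88%), in 3.65% of those of all tested genes, in 5.37% of those at least 2-fold higher with KCl and in 2.92% of those at least 2-fold higher with H2O2. Among the other lists searched the share ran from 0.0% (p53 and cholesterol genes) to 29.4% (heat shock chaperones), so matches were not particular to the osmolyte list. The windows are short, and a missing match says only that the letters are not in them.

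Ion transporters and kinases of cell volume control split. Of 17 tested, 11 were lower with H2O2 (background 40.0%) and 4 higher (42.5%), with a median of -0.57. The sodium pump subunit Atp1b1 had 11.3 and 14.2 CPM with H2O2 and 177 and 179 CPM with KCl (log2 fold change -3.84, SE 0.085). In the other direction stood Lrrc8b, a subunit of the volume-regulated anion channel, with 44.3 and 46.7 against 6.57 and 6.18 CPM (2.81, SE 0.087), and Slc12a4, a potassium chloride cotransporter, at 1.05.

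Heat shock chaperones differed by member. Of 16 tested, 8 were lower (background 40.0%) and 5 higher (42.5%) with H2O2, with a median of -0.25. Hspa1b, an inducible Hsp70, had 44.4 and 42.6 CPM with H2O2, 600.0 and 659 CPM with KCl and 84.3 and 94.0 CPM in the control, a log2 fold change of -3.87 (SE 0.070). Its near-identical copy Hspa1a had 34.6 and 33.0 against 118 and 142 CPM, and the split of reads between the copies is uncertain. Hsph1 (Hsp110) differed by -3.19. The mitochondrial chaperonin genes Hspd1 and Hspe1, in contrast, were higher with H2O2 by 0.81 and 0.92, Dnajb1 by 0.85 and the small heat shock protein gene Hspb8 by 1.19, while Hsp90ab1 did not pass at 0.00 (SE 0.064).

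Cell cycle genes separated by phase. All 20 tested genes of mitosis were lower with H2O2, 16 of them by at least 2-fold, with a median of -1.44. Cenpf, a kinetochore protein, had 13.4 and 13.6 CPM with H2O2 and 149 and 136 CPM with KCl, and Plk1, the polo kinase of mitotic entry, 16.1 and 13.5 against 131 and 114 CPM. In the control Plk1 had 130 and 133 CPM, so KCl lay near the control and H2O2 far below it. Over the list the median against the control was -1.36 with H2O2 and 0.25 with KCl. Ccna2, cyclin A, had the smallest difference at -0.20 (SE 0.065), with adjusted p 0.0122 by edgeR, and it no longer passed without H2O2 replicate 1 (adjusted p 0.104) or without KCl replicate 1 (0.0847). In bulk RNA, fewer cells in a phase and less RNA per cell cannot be told apart.

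Replication genes did not share this drop. Of 23 tested, 14 were higher with H2O2 (background 42.5%), 4 of them by at least 2-fold. Lower were 6 (40.0%), none by 2-fold, and the median was 0.31. Rrm2, a ribonucleotide reductase subunit, had 452 and 498 CPM with H2O2, 69.8 and 69.5 CPM with KCl and 170 and 167 CPM in the control, a log2 fold change of 2.75 (SE 0.066). Ccne1, cyclin E, had 32.2 and 30.9 against 6.22 and 4.81 CPM and stayed within 0.07 of the control with H2O2 on the log2 scale. Mcm5, a helicase subunit, did not pass at 0.01 (SE 0.059), and Cdc45 had the largest difference towards KCl at -0.66.

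Genes of cholesterol synthesis and uptake moved almost as a block. Of 20 tested, 19 were lower with H2O2, 17 by at least 2-fold, with a median of -2.0. Stard4, a carrier of cholesterol within the cell, had 37.5 and 39 CPM with H2O2, 239 and 244 CPM with KCl and 140 and 139 CPM in the control, a log2 fold change of -2.68 (SE 0.059). The H2O2 libraries lay below the control and the KCl libraries above it. Srebf2, the transcription factor of the pathway, differed by -1.91, and Mvd was the member that did not pass, at -0.11 (SE 0.072). All 20 were below the control with H2O2, where 31.1% of genes were, while with KCl 13 were above it and 3 below.

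The 150 bases before the start of Hmgcs1, HMG-CoA synthase (chr13:119690201-119690350, plus strand), are shown for the sterol element letters TCACNCCA, in capitals.
Hmgcs1: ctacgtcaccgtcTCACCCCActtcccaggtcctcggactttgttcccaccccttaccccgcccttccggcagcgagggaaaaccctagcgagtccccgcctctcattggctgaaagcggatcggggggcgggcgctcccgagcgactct
Hmgcs1 had 94.9 and 95.3 CPM with H2O2, 379 and 399 CPM with KCl and 541 and 519 CPM in the control. It was thus below the control with both stresses. The sterol element letters were present in 3 of 14 promoters of the list (21.4%) and in 3.78% of those of all tested genes. The share was 4.21% for genes at least 2-fold higher with KCl and 3.7% for genes at least 2-fold higher with H2O2. Among the other lists searched it ran from 0.0% (ATF4, osmolyte and heat shock lists) to 18.5% (NRF2 list), so the letters were not particular to the cholesterol list.

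Immediate early transcription factors were mostly higher with H2O2, 12 of 19 tested, with 4 lower and a median of 1.44. Fosl1 (Fra-1) had 278 and 281 CPM with H2O2, 14.8 and 15.5 CPM with KCl and 29.4 and 34.3 CPM in the control, a log2 fold change of 4.19 (SE 0.066). Egr1 had 276 and 296 against 25.6 and 28.2 CPM and was above the control with H2O2 and below it with KCl. Fos differed by 2.33. Higher with KCl were Nr4a2, a nuclear receptor with 12 and 11.7 against 41.1 and 49.0 CPM (-1.94, SE 0.094), Fosl2 at -1.41 and Ier3 at -1.15.

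MAP kinase phosphatases of the DUSP family split by gene. Of 10 tested, 7 were higher with H2O2 (background 42.5%) and 2 lower (40.0%), with a median of 1.40. Dusp5, a nuclear ERK phosphatase, had 40.3 and 41.3 CPM with H2O2 and 2.54 and 2.43 CPM with KCl (4.02, SE 0.10), and Dusp6, its cytoplasmic counterpart, 54.7 and 60.9 against 7.79 and 8.70 CPM. Dusp2 had 168 counts with H2O2 and 3 with KCl, a ratio of 48.7 (16.4 to 238). Dusp1, an early stress phosphatase, was higher with KCl at 21.7 and 29.0 against 93.1 and 102 CPM (-1.97, SE 0.10), as was Dusp16 at -1.44.

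Cytokine, chemokine and NF-kB feedback genes went both ways. Of 22 tested, 14 were higher (background 42.5%) and 6 lower (40.0%) with H2O2, with a median of 0.75. Lif, leukaemia inhibitory factor, had 368 and 460 CPM with H2O2, 8.82 and 8.96 CPM with KCl and 13.3 and 17.4 CPM in the control (5.52, SE 0.11). Icam1, an adhesion receptor, had 47.1 and 45.1 against 1.43 and 1.10 CPM. Csf2 (GM-CSF) had 228 counts with H2O2 and none with KCl, at least 66.1-fold higher against the floor of 3 counts over the group. The chemokine gene Cxcl5 went the other way, with 27.2 and 28.9 CPM with H2O2 and 337 and 310 CPM with KCl (-3.55, SE 0.069). Ptgs2 (COX-2) was above the control with both, by 2.47 with H2O2 and 3.03 with KCl, and the direct difference was -0.58 (SE 0.10).

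Interferon response genes had the second highest median of the 25 lists, 2.32, with 13 of 14 tested higher with H2O2 and 10 by at least 2-fold. Ifit1 had 71.1 and 70.4 CPM with H2O2, 3.39 and 4.90 CPM with KCl and 28.8 and 31.0 CPM in the control (4.10, SE 0.11), and Isg15, a ubiquitin-like protein, 119 and 107 against 7.90 and 11.6 CPM. Both were above the control with H2O2 and below it with KCl. The largest difference was in Rsad2 (viperin) at 4.16 (SE 0.19), and Stat2 was the exception at -0.65 (SE 0.085). The gene of interferon beta, Ifnb1, had no count in any of the 4 libraries and was not tested. The list's median against the control was 0.78 with H2O2 and -1.25 with KCl, where 12 of 14 members were lower (background 31.6%).

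Secreted growth factors and hormones held members at both ends. Of 19 tested, 13 were higher and 4 lower with H2O2, with a median of 1.11. Areg (amphiregulin, a ligand of the EGF receptor) had 43.3 and 46.4 CPM with H2O2 and 1.68 and 1.85 CPM with KCl (4.65, SE 0.11), Pdgfa 121 and 131 against 6.61 and 6.22 CPM, and Vegfa, the vascular growth factor, 236 and 261 against 63.8 and 70.3 CPM. Towards KCl, Stc1 was followed by Hgf (hepatocyte growth factor, 0.152 and 0.119 against 2.54 and 3.0 CPM) and by Adm (adrenomedullin) at -2.49 (SE 0.14).

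Matrix and contractile genes were mostly lower with H2O2. Of 21 tested collagen and matrix genes 18 were lower and 2 higher, with a median of -0.83, and 5 of the 18 reached 2-fold. Thbs1 (thrombospondin) had 293 and 310 CPM with H2O2, 1645 and 1549 CPM with KCl and 1890 and 2001 CPM in the control (-2.42, SE 0.065), and Col1a1 differed by -1.18. The member highest with H2O2, Eln (elastin), stood at only 1.36 and 1.46 CPM against 0.107 and 0.132 CPM. Of 20 tested targets of SRF, YAP and TGF-beta, 15 were lower and 4 higher with H2O2, with a median of -0.75. Id3, an inhibitor of differentiation factors, had 17.5 and 15.2 CPM with H2O2, 158 and 162 CPM with KCl and 59.8 and 56.4 CPM in the control (-3.30, SE 0.070). Vcl, vinculin of focal adhesions, had 293 and 322 against 1893 and 2003 CPM.

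In the BCL2 family, 9 of 15 tested genes were higher (background 42.5%) and 2 lower (40.0%) with H2O2, with a median of 0.45. The BH3-only gene Bmf had 1.09 and 1.86 CPM with H2O2, 23.5 and 25.5 CPM with KCl and 15.8 and 16.3 CPM in the control, opposite to Bbc3 and Pmaip1. Hrk, also BH3-only, had 57 counts with H2O2 and 1 with KCl, a ratio of 49.6 (8.54 to 1991). Mcl1, which opposes them, differed by 0.73.

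Autophagy and lysosome genes were slightly lower with H2O2, 12 of 19 tested (background 40.0%) with 5 higher (42.5%) and a median of -0.31. Map1lc3b (LC3B) had 123 and 119 CPM with H2O2 and 282 and 325 CPM with KCl (-1.34, SE 0.069), while Ulk1, the kinase that starts autophagy, had 328 and 331 against 76.4 and 85.6 CPM (2.01, SE 0.064). Sqstm1 (p62) differed by 1.04. Of 8 tested genes of metallothioneins, zinc and iron transport, 3 were higher (background 42.5%) and 4 lower (40.0%). Mt2 had 259 and 278 CPM with H2O2, 16.8 and 14.8 CPM with KCl and 81.4 and 88.8 CPM in the control (4.06, SE 0.076), and the zinc exporter gene Slc30a1 differed by 3.43. Slc40a1, the iron exporter ferroportin, was higher with KCl at 2.34 and 2.49 against 18.4 and 25.6 CPM (-3.20, SE 0.17).

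Of 16 tested clock genes 9 were lower (background 40.0%) and 4 higher (42.5%) with H2O2, with a median of -0.55. Hlf, a clock output factor, had 2.64 and 3.36 CPM with H2O2 and 29.9 and 28.5 CPM with KCl (-3.32, SE 0.12), and Nr1d1 (Rev-erb alpha) 42.5 and 47.3 against 13.8 and 14.6 CPM (1.65, SE 0.083). Glycolysis genes were lower with H2O2 in 16 of 19 tested, 7 by at least 2-fold, with a median of -0.76. The lactate exporter gene Slc16a3 had 5.19 and 4.27 CPM with H2O2 and 34.1 and 38.1 CPM with KCl (-2.93, SE 0.11). Ldha, lactate dehydrogenase, differed by -1.03 and hexokinase 2, Hk2, by 0.55. Gapdh differed by -0.20 (SE 0.062, adjusted p 0.00851 by edgeR) and did not pass without H2O2 replicate 2 (0.057) or with all 10 libraries in 1 fit (0.169).

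All 13 mRNAs of the mitochondrial genome were lower with H2O2 by at least 2-fold, with a median of -2.26. mt-Co1, a subunit of cytochrome oxidase, had 1610 and 1761 CPM with H2O2, 10737 and 9708 CPM with KCl and 7100 and 5924 CPM in the control (-2.62, SE 0.081). The KCl libraries were thus above the control and the H2O2 libraries below it. Summed over the 13 genes, 6620 and 7480 CPM with H2O2 stood against 37700 and 34500 CPM with KCl. How far polyA selection recovers these mRNAs in each condition was not tested.

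Genes of cytosolic ribosomal proteins shifted by little and all the same way. All 79 tested were higher with H2O2, none by 2-fold, between 0.21 for Rpl10 and 0.89 for Rpl36, with a median of 0.55. The median against the control was 0.48 with H2O2 and -0.07 with KCl. Proteasome subunits had a median of 0.22, with 21 of 31 higher and 3 lower. Psmc1, an ATPase of the regulatory particle, had the largest difference at 0.93 (SE 0.056), and Psmd12 the lowest at -0.32.

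**Figure D3:**
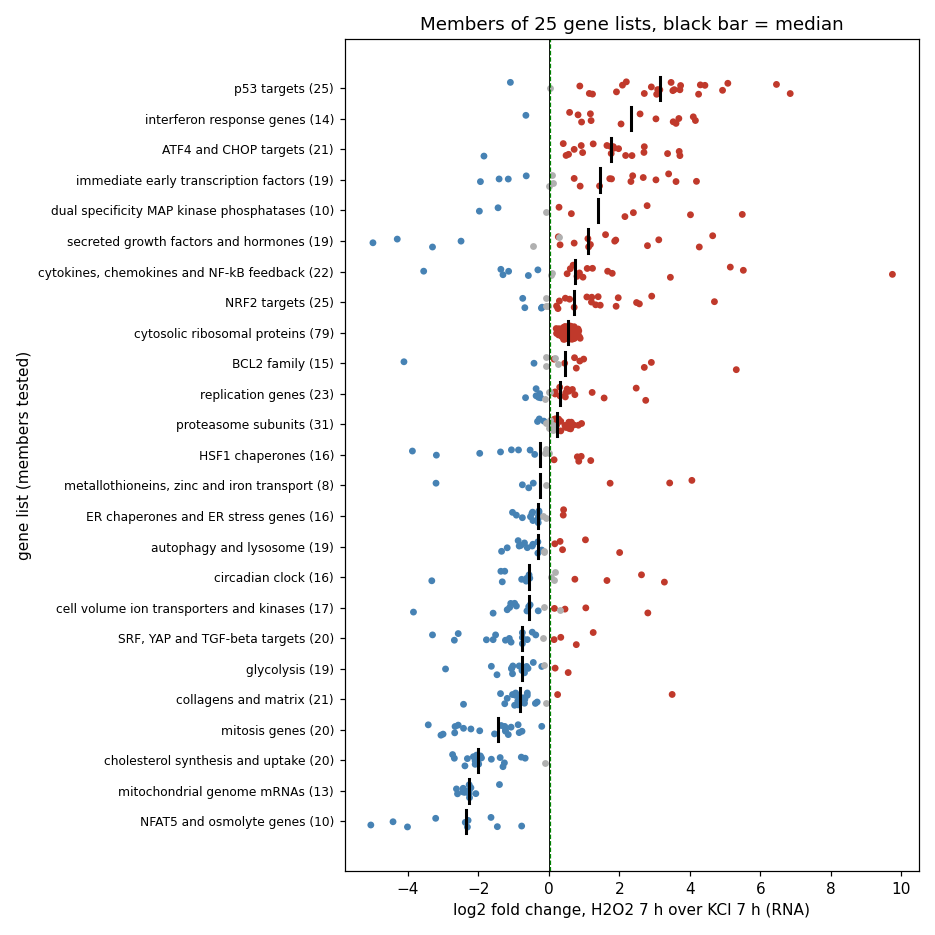
Log2 fold change in RNA of H2O2 7 h over KCl 7 h (x axis) for each tested member of 25 gene lists (y axis, number of members in brackets, sorted by median). Red and blue points passed the test as higher and lower with H2O2, grey points did not, black bars are list medians and the dashed green line is the median of all tested genes at 0.03. The p53 list lies furthest right with a median of 3.15 and the osmolyte list furthest left at -2.34, and the ribosomal protein genes form the tightest group, between 0.21 and 0.89.

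Markers of other cell types were low, and some of them differed. Over 6 blood and immune markers the summed level was 24.1 and 23.1 CPM with H2O2 and 3.32 and 3.44 CPM with KCl, and nearly all of it was Cd68, a lysosomal protein of macrophages (23.9 and 22.7 against 3.07 and 3.18 CPM, log2 fold change 2.88, SE 0.11). Adgre1 and Cd3e were at 0 in all 4 libraries. Read-in from Eif4a1 into Cd68 was called in 1 H2O2 library. The authors' read-in ratio for this pair was 0.129 and 0.168 with H2O2 and 0.851 and 0.881 with KCl. In footprints Cd68 differed by 3.57. The part of read-in in the Cd68 difference was not tested. Of 7 epithelial markers 5 were tested, and Krt5 (basal keratin) had 117 counts with H2O2 and none with KCl, at least 33.9-fold higher, while Cldn4 (a claudin) had 0.182 and 0.435 against 4.18 and 4.77 CPM. The summed level of the 7 was 8.22 and 8.23 CPM with H2O2 and 15.9 and 17.6 CPM with KCl. Of the 5 tested, 2 were higher and 3 lower with H2O2, and the list's median of -1.29 ran from -2.41 to 0.72 over the alternatives.

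The 6 muscle and neuron markers summed to 21.3 and 24.5 CPM with H2O2 and 29.3 and 31.8 CPM with KCl, with Snap25 at 0 in all 4 libraries. Of the 2 tested members 1 was higher and 1 lower with H2O2. Des, desmin, had 6.58 and 7.71 against 0.179 and 0.0441 CPM (5.84, SE 0.32), and the other tested member differed by -1.01. The 4 endothelial markers summed to at most 7.5 CPM in any of the 4 libraries. Of 9 fibroblast markers 8 were lower with H2O2, among them the receptor gene Pdgfrb with 27.4 and 29.3 against 214 and 297 CPM (-3.19, SE 0.13), and Vim (vimentin) at -1.03. The part of other cell types in the differences was not tested.

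Ribosome footprints, the mRNA fragments covered by ribosomes, gave a separate measurement of the same contrast in 4 libraries of 2884344 to 3775978 counts. Of 10228 genes tested there, 2619 were higher with H2O2 (25.6%) and 2267 lower (22.2%). The count depended on the libraries kept, falling to 1074 higher and 831 lower without KCl replicate 1, and to 1238 and 1047 without KCl replicate 2. Tested on log2(TPM + 1) with limma, 2991 were higher and 1435 lower. Genes that are high in 1 group pass the filter on low counts more readily through that group, so the following counts are descriptions. Among genes at least 2-fold higher with H2O2 in RNA, 1638 were tested in footprints, and 1447 of them (88.3%) passed in the same direction and 1 in the opposite one. Among those at least 2-fold higher with KCl, 1071 of 1348 (79.5%) passed in the same direction and 4 in the opposite one.

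Sizes in footprints were close to those in RNA for some genes and not for others. Cdkn1a had 856 and 1219 footprint CPM with H2O2 and 11.6 and 8.51 CPM with KCl (log2 fold change 6.66), and Akr1b3 132 and 127 against 3830 and 3853 CPM (-4.93). Krt13 differed by 8.95 in RNA and 4.83 in footprints, and Aspn by -4.57 and -2.52. Krt13 had 1 RNA count in each KCl library and KCl footprints of 1.5 and 0.284 CPM. Both of its sizes thus rest on very few counts with KCl. For mt-Co1 the footprint difference was -3.41, with 645 and 1192 CPM in the KCl libraries, a wider spread than in RNA. Ribosomal protein genes did not carry their RNA difference into footprints. Of 78 tested there none passed as higher and 16 passed as lower with H2O2, with a median of -0.21, close to the background of 22.2%. The RNA and footprint fits were scaled separately, and the difference between them was not tested.

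Of 10154 genes tested in both measurements, 4604 passed in both, and 158 of these with opposite signs. Wsb1, a ubiquitin ligase substrate receptor, was higher with H2O2 in RNA at 227 and 263 against 146 and 142 CPM, and lower in footprints at 76.6 and 81.5 against 218 and 253 CPM. Atxn1 (ataxin 1) had RNA of 10.8 and 13.1 against 23.4 and 28.5 CPM but footprints of 6.26 and 4.61 against 1.88 and 1.70 CPM. Its footprint call was lost with DESeq2 (adjusted p 0.196) and without any 1 of the 4 libraries (0.061 to 0.219). Zfp169 stood at -1.20 in RNA and 1.74 in footprints, and its footprint call was lost with DESeq2 (adjusted p 0.0699) and without KCl replicate 1 (0.0744). Tppp3 stood at -0.53 and 2.70. Its RNA call was lost with DESeq2 (adjusted p 0.0546) and with limma on log2(TPM + 1) (0.076) and log2(TPM + 0.1) (0.0843). Its footprint call was lost with DESeq2 (0.107) and without KCl replicate 1 (0.0869) or 2 (0.0771). Retreg3, at -2.75 and 0.99, has a second row under its older symbol Fam134c, and with both rows summed its RNA difference was 0.06 (adjusted p 0.316 by edgeR), so its reversal rests on how reads were divided between the rows. Its footprint call was also lost with DESeq2 (adjusted p 0.254) and without any 1 of the 4 libraries (0.0989 to 0.177).

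**Figure D4:**
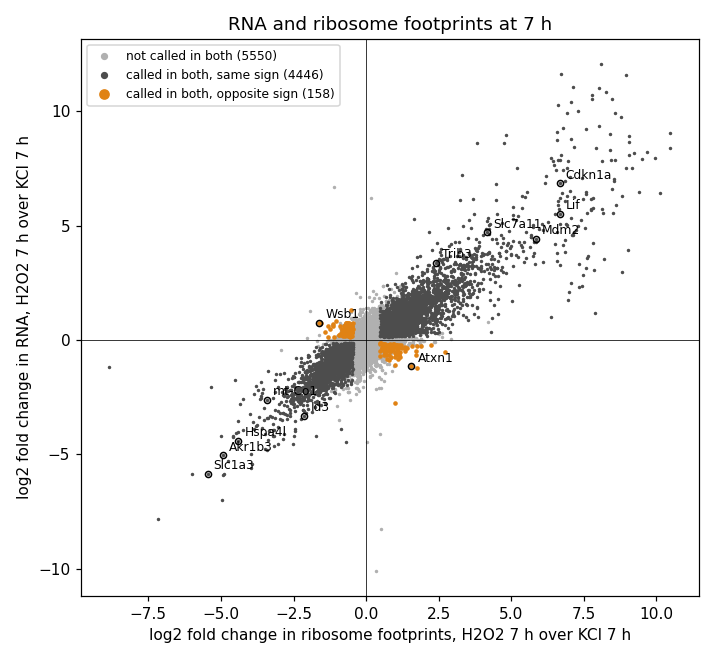
Log2 fold change of H2O2 7 h over KCl 7 h in ribosome footprints (x axis) and in RNA (y axis) for the 10154 genes tested in both. Dark points passed in both with the same sign, orange points (158 genes) passed with opposite signs and grey points did not pass in both, and circled genes lie along the diagonal except Wsb1 and Atxn1.

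The same contrast at 2 h showed which differences were already there. Of the genes at least 2-fold higher with H2O2 at 7 h, 2123 were tested at 2 h, and 934 (44.0%) already passed in the same direction, while 144 passed in the opposite one. Over all 12594 genes tested at 2 h, 26.0% were higher and 20.7% lower with H2O2. For genes at least 2-fold higher with KCl at 7 h the numbers were 855 (48.3%) and 168 of 1772. In a test of the change between times over the 8 libraries, 8892 of 13172 genes (67.5%) passed. Slc7a11 and Lif differed early, by 3.50 and 5.78 at 2 h. For Lif the change between times did not pass (-0.23, SE 0.18). Cdkn1a differed by 1.55 at 2 h and by 5.33 more at 7 h, and Akr1b3 by -2.12 at 2 h and by -2.90 more at 7 h.

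Of 12087 genes tested at both times, 1150 passed at both with opposite signs and also passed the test of the change between times. Il18rap, a subunit of the interleukin 18 receptor, had 34.1 and 32.5 CPM with H2O2 and 13.8 and 15.0 CPM with KCl at 2 h, and 4.64 and 5.14 against 39.6 and 36.3 CPM at 7 h. The gene thus changed sides, with no overlap of the groups at either time. Tnxb did likewise from 0.91 to -4.22. Towards H2O2, Nfia (a nuclear factor I protein) went from -0.71 to 3.66, Zbp1 (a sensor of Z-form nucleic acids) from -0.79 to 3.22, Apc2 from -0.52 to 3.46 and St14 from -1.10 to 8.16.

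Tent4b, a poly(A) polymerase listed also under its older symbol Papd5, went from -1.02 to 6.20, but with both rows summed its 7 h difference was -0.52 (adjusted p 5.82e-07 by edgeR), so its direction rests on how reads were divided between the rows. Zfp335os, an antisense RNA that overlaps Zfp335, went from 1.74 to -2.04, and the labels do not say whether the counting used strand.

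**Figure D5:**
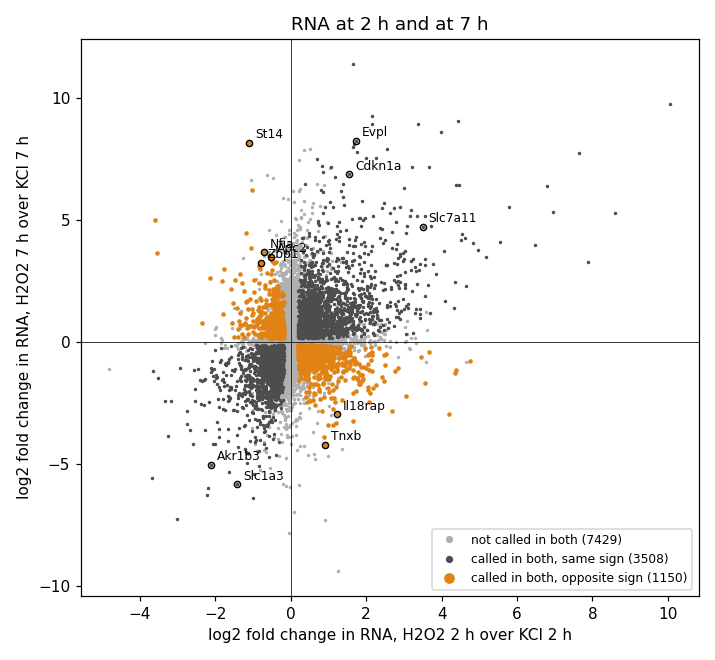
Log2 fold change in RNA of H2O2 over KCl at 2 h (x axis) and at 7 h (y axis) for the 12087 genes tested at both times. Dark points passed at both times with the same sign, orange points with opposite signs and grey points did not pass at both. Orange points were not filtered by the test of the change between times. The circled Cdkn1a, Evpl, Slc7a11, Akr1b3 and Slc1a3 lie in the quadrants of equal sign.

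Read-in, called by the authors where transcription from an upstream gene reaches into its neighbour, was called more often in both KCl libraries than in either H2O2 library. With 2 libraries a group, no exact test of such counts can pass. Of 6399 gene pairs, 37 and 36 were called in the H2O2 libraries, 59 and 65 in the KCl libraries and 36 and 35 in the control libraries. Calls of transcription past gene ends (DoGs) were 1243 and 1359 with H2O2, 1520 and 1498 with KCl, and 1551 and 1615 in the control. The DoG calls of the KCl libraries therefore did not exceed those of the control in number. The control libraries were deeper, with 45244430 and 35775040 expected counts against 30094091 and 24441877 with KCl. How depth bears on these calls was not tested. Of 94 tested genes with a read-in call in any of the 4 libraries, 38 were higher and 37 lower with H2O2, with a median of -0.08, close to the shares over all genes.

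Among 22 tested genes called in both KCl libraries and in no H2O2 library, 13 were higher and 7 lower with KCl, where 40.0% and 42.5% of all genes were. Of 5 tested genes called in both H2O2 libraries and in no KCl library, 3 were higher and 2 lower with H2O2. Col20a1, a collagen gene next to Arfgap1 (chr2:180983323-181017545 and chr2:180967225-180982526), had 7.58 and 9.46 CPM with H2O2 and 32.0 and 34.0 CPM with KCl at 7 h, and the reverse order at 2 h with 26.9 and 23.8 against 6.58 and 5.72 CPM. Without genes called for read-in, 5327 genes were higher and 5016 lower with H2O2.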

How the data were processed

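RNA was polyA-selected mRNA of NIH3T3 cells, per the labels' protocols, and footprints came from the same conditions. The authors deposited expected counts and TPM per gene symbol. STAR, RSEM, Bowtie and mm10 are named in the submitters' processing notes, with no versions or roles. The authors also deposited true or false calls of read-in and of transcription past gene ends, and a read-in ratio per gene pair, and how these were made is not stated in the labels. Of the deposited columns, 12 match no labelled sample and were not used.

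The direct test used edgeR 4.0.16 in R 4.3.3 on the 4 libraries, with TMM scaling, filterByExpr, the quasi-likelihood F test and Benjamini-Hochberg adjustment over all tested genes at 0.05. SE is the absolute log2 fold change over the root of F. CPM was scaled over the 10 libraries of the H2O2 and KCl experiment. Comparisons with the control used those 10 libraries, the change between times 8 and footprints 4. The code was tested on simulated data. For some genes with at most 3 counts in a group, the count ratio is given with its exact 95% interval. Where a group had no count, a floor of 3 counts per group was used.

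Members, gene lists and tests were chosen with earlier results of these data known. Genes were named by rule: the 14 largest differences each way with an average of at least 3 log2 CPM and no overlap, the extreme and best known members of each list, 5 genes with opposite signs in RNA and footprints, and 5 each way with opposite signs at 2 h and 7 h. Other list members were named after their values were seen, and some genes that the rule takes up are not reported here. Alternatives were DESeq2 1.42.0, limma 3.58.1 on log2(TPM + 1) and log2(TPM + 0.1) with a mean TPM of at least 1, RLE scaling, no filter, all 10 libraries, a fold minimum, a replicate block, summed synonym rows (101), exclusion of read-in genes and leaving out each library. Of 20430 symbols 19885 matched the RefSeq table (GRCm38.p6), which gave locations and promoters.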

Additional observations from a re-analysis of the deposited data

Results flagged for a closer look

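The difference between H2O2 and KCl itself differed between 2 h and 7 h for 8892 genes, by the test of the change between times in edgeR. Among genes that passed with opposite signs at the 2 times, some had especially large changes. Towards H2O2, the change on the log2 scale was 9.28 (SE 0.56) for St14, 7.25 (SE 0.58) for Tent4b, 4.40 (SE 0.23) for Nfia, 4.04 (SE 0.21) for Zbp1 and 4.01 (SE 0.18) for Apc2. Towards KCl it was -5.11 (SE 0.18) for Tnxb, -4.17 (SE 0.13) for Il18rap, -4.01 (SE 0.17) for Col20a1 and -3.74 (SE 0.19) for Zfp335os. St14 began from 0.381 and 0.384 CPM with H2O2 and 0.576 and 1.07 CPM with KCl at 2 h, near the lowest levels tested. Tent4b shares its reads with a row under an older symbol, and with both rows summed its 7 h difference was -0.52. Its change of 7.25 therefore rests on how reads were divided between the rows. Col20a1 had read-in calls in both KCl libraries and in no H2O2 library at 7 h. Its read-in ratio was 1.85 and 2.46 with KCl and 1.85 and 1.91 with H2O2. Zfp335os overlaps Zfp335 on the other strand. The part of read-in and of overlap in the changes of Col20a1 and Zfp335os was not tested.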

How the results depend on the processing

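In RNA, the counts of genes higher and lower with H2O2 stayed within 1.5 times of 5369 and 5053 under each alternative run except the 2-fold minimum, which left 4383 genes, 2503 higher and 1880 lower. DESeq2 gave 4856 and 4629. Leaving out 1 library gave 5054 to 5275 higher and 4770 to 4994 lower, where the lone library is assumed to vary like the other group. In footprints, leaving out 1 library gave 1905 to 3879 genes, with 1074 to 2139 higher and 831 to 1740 lower, and limma on log2(TPM + 1) gave 1435 lower. With synonym rows summed the RNA difference was 0.06 for Retreg3 and -0.52 for Tent4b, by construction of the sums. Tent4b had 0 and 18.4 footprint CPM with H2O2 and 5.26 and 10.2 CPM with KCl. Its footprint difference ran from -7.70 without H2O2 replicate 2, which left the library at 0, to 1.17 without H2O2 replicate 1. The cause of the spread between the H2O2 replicates was not tested. Of 2629 pairs of a named gene and an alternative in RNA, 2618 kept direction and side of the threshold, 7 lost the call, 2 gained it and 2 changed sign. In footprints 178 of 1896 pairs lost the call, 10 gained it and 1 changed sign. Both totals include genes that did not pass in the main test and so could not lose a call.

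With the replicate number as a block, 5388 genes were higher and 5071 lower in RNA (10459 in all), and 2807 and 2547 in footprints. Deviations of same-numbered libraries correlated at -0.031 in RNA and 0.21 in footprints. The labels tie no number to a shared culture or day, and with 2 replicates a group the footprint value does not settle whether the numbers pair the libraries. Footprint libraries were shallower than the RNA libraries (at most 3775978 counts).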
